A study of Mus musculus with 13 samples.

Results

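The miRNAs described here carry the names miR-297, miR-466, miR-467 and miR-669 and form the repeat-rich miRNA cluster of mouse *Sfmbt2*, together with namesakes elsewhere in the genome. Earlier results of these data were known when members were chosen. The rule itself used names only: every hairpin (precursor) and every mature miRNA whose name starts with any of these 4 numbers. This gave 82 of 1127 hairpins and 79 of 1297 mature miRNAs. Many hairpins held the same count in every library, so the 82 hairpins correspond to 61 distinct sets of counts and the 79 mature miRNAs to 70. Sums below use each distinct set once.

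Small RNA-seq was performed on iNKT cells, a T cell lineage with an invariant T cell receptor, sorted by FACS from the thymus of 6 WT mice (C57BL/6) and 7 *Tet2/3* DKO mice (Tet2-/- Tet3 flx/flx CD4 cre), aged 21 to 25 days. Males and females were included, at 1 library a mouse. In the DKO mice Tet2 was absent from all cells, whereas Tet3 was deleted by a Cre driven by Cd4, which acts from the CD4+ CD8+ thymocyte stage onwards, and the WT mice carried neither Cre nor floxed alleles. A change in the DKO therefore cannot be assigned to the iNKT cells alone or to either enzyme alone. The tables count small RNAs, so the deletion of *Tet2* and *Tet3* could not be checked in them.

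*Sfmbt2* encodes a Polycomb group protein with MBT repeats, and in mouse it is imprinted and expressed from the paternal allele, most prominently in early embryos and placenta. A large rodent-specific miRNA cluster lies within one of its introns, in which a unit of a few hairpins has been duplicated in tandem. Hairpins are cut from the primary transcript by DROSHA and DGCR8, trimmed by DICER to a duplex with a 5p and a 3p arm, and loaded into ARGONAUTE, where bases 2 to 8 of the mature strand (the seed) pair with target mRNAs. Many of these miRNAs consist largely of alternating UG or CA, so their sequences resemble each other and simple repeats elsewhere in the genome.

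The RefSeq table matched 8 of the 79 mature members and 4 of the 82 hairpins, and these lie outside *Sfmbt2*. Members on which the results below turn are shown 5′ to 3′ with the seed in capitals, since their repeat content bears on how single members can be told apart.
miR-467h: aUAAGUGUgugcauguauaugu
miR-466k: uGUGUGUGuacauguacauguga
miR-466j: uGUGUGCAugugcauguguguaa
miR-466i-3p: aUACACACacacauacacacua
miR-466q: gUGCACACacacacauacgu
No 2 of the 8 members with a sequence shared a seed. The seed of miR-467h, UAAGUGU, was also that of miR-668-5p, and the other 7 seeds occurred in no other mature miRNA of the table with a sequence. Members inside *Sfmbt2* had no sequence here, so seeds shared with them could not be looked for. The longest alternating run was 9 bases of UG in miR-466k, 7 in miR-467h and miR-466j, and of CA 12 bases in miR-466q and 11 in miR-466i-3p. Runs of at least 10 bases of either kind were held by 0.557% of the 1078 mature miRNAs that had a sequence.

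For mir-467h and mir-466k the hairpin and the mature miRNA gave different pictures, so both hairpins are shown with the mature miRNA in capitals (GRCm38.p6).
mir-467h, chr9:115381819-115381939, + strand: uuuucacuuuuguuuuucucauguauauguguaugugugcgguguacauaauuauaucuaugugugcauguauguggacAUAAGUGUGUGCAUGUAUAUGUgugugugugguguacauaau
mir-466k, chr3:85467377-85467498, + strand: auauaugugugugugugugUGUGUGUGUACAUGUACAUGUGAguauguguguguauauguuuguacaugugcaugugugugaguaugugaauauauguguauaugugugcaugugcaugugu

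By name, 81 of the 82 hairpins were found in the GENCODE annotation of GRCm38, and mir-466a was not. Of these, 71 lay inside *Sfmbt2* (chr2:10370510-10595253, + strand), all on the strand of the gene, all between 10466663 and 10518279 and none overlapping an exon. They share 1 intron of 62.5 kb (10461473 to 10523944) and span 51.6 kb of it. The annotation has 119 miRNA genes inside the gene, 48 of which matched no member. The remaining 10 members lay on other chromosomes, namely mir-466q, mir-466k and mir-669n on chromosome 3, mir-467g on 5, mir-297a-1 on 7, mir-467h on 9, mir-466j on 10, mir-467f on 11, and mir-466i and mir-466f-4 on 13. Of the 10, mir-466q was in an intron of *Tnik* on the same strand. Introns of *Cdk13*, *Fxr2*, *Grk4*, *Slc30a7* and Gm37240 held mir-466i, mir-467f, mir-467g, mir-669n and mir-466k on the opposite strand, and the other 4 were in no annotated gene of another kind.

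Because the intronic members lie on the strand of *Sfmbt2*, downstream of its starts, the promoter window of the more downstream of its 2 RefSeq starts is shown, as the nearer to the cluster, with every CG in capitals (GRCm38.p6, chr2:10372186-10372485, + strand, 250 bases before to 50 after the start).
*Sfmbt2* promoter: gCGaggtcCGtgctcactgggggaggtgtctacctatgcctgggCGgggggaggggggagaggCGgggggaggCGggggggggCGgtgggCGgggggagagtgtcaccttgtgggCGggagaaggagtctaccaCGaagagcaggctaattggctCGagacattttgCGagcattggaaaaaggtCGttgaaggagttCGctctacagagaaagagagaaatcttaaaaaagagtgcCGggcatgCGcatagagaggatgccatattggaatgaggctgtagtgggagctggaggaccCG
It holds 16 CG, against a median of 7 over 32851 promoter windows of the same length, and 33% of those windows hold at least as many. The window of the other start (chr2:10370201-10370500), not printed, holds 9 CG, which 45.8% of windows reach. The small RNA tables say nothing about methylation of this window.

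Libraries held 469117 to 1110226 hairpin counts in WT and 728653 to 1910526 in DKO, and 1110852 to 2582057 and 1837631 to 4361963 mature counts. DKO libraries were deeper in most cases, but the shallowest, DKO 7, lay within the WT range in both tables. Of 7 blood and T lineage miRNAs looked for, 6 had rows under the names used, and their summed level was 167711 to 230525 CPM in WT and 148347 to 228180 in DKO. CPM are counts per 1000000 of a library scaled by TMM, the trimmed mean of log ratios to a reference library. miR-142 is not in this sum, because its rows are named miR-142a and miR-142b. Its log2 fold changes of DKO over WT were -0.41 for miR-142a-3p, -0.54 for miR-142a-5p and -0.85 for miR-142b. Markers of other cells were at lower levels than the blood and T lineage sum in both genotypes. In 3 of 6 lists (red cells, stroma and epithelium) every DKO mouse was below every WT mouse, while the endothelial range was higher in DKO. Summed over each list in WT and DKO, red cell miRNAs (2 of 2 with rows, at 0 in some DKO libraries) had 16.1 to 38.1 and 0 to 3.87 CPM, the hepatocyte miRNA 46.9 to 883 and 3.16 to 49.3 CPM, and the myeloid miRNA 2.31 to 92.5 and 0.633 to 6.57 CPM. Stromal miRNAs (3 of 3) had 57.6 to 94.5 and 10.97 to 19.9 CPM, epithelial miRNAs (5 of 5, of which 4 had counts in all libraries) 992 to 1484 and 590 to 770 CPM, and the endothelial miRNA 126.6 to 237 and 196 to 335 CPM. The part of other cells in the differences below was not tested.

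The cluster and its namesakes were a small share of iNKT miRNAs in WT mice and a larger one in DKO mice. In the hairpin table the members, each distinct set once, came to 1.23% ± 0.147 of the total in WT (SD, n = 6) and 2.50% ± 0.229 in DKO (SD, n = 7). The total kept every row, repeated ones included, so these are not shares of distinct counts. In the mature table the shares were 1.59% ± 0.176 and 3.03% ± 0.296. Scaled by TMM, the hairpin sum in WT libraries ranged from 11965 to 15265 CPM with a median of 14087, and in DKO from 19490 to 24566 with a median of 22648. Every DKO mouse was thus above every WT mouse, including DKO 7. The mean log2 difference was 0.69, against a pooled SD of 0.11 between mice of one genotype. The mature sum ranged from 15464 to 18656 CPM in WT with a median of 17527, and from 24218 to 33316 in DKO with a median of 28092, with a mean log2 difference of 0.69 and a pooled SD of 0.14. In RNA from a whole sorted population, more cells with these miRNAs and more of them per cell cannot be told apart.

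Near copies had nearly the same counts, so the hairpin sum may count the same reads more than once. With hairpins whose counts differed by at most 5% also taken once (44 groups, the largest holding 6 distinct sets of counts), the mean log2 difference was 0.60. No mature members were near copies by this measure.

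All 4 name groups were higher in DKO when summed. The hairpin sums differed by a mean log2 of 0.86 for miR-297, 0.52 for miR-466, 0.79 for miR-467 and 0.67 for miR-669, with no overlap between genotypes in any of them. In the mature table the differences were 1.10 for miR-297, 0.67 for miR-466, 0.81 for miR-467 and 0.56 for miR-669, and the last overlapped, since DKO 7 (7972 CPM) was below the highest WT library (8455 CPM). The miR-467 group varied least between WT mice, with a hairpin sum of 5724 to 6245 CPM in WT (median 6068) and 8807 to 11232 in DKO (median 10635). The miR-297 group was the smallest, with 51.7 ± 12.1 mature CPM in WT and 111 ± 25.4 in DKO.

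**Figure D1:**
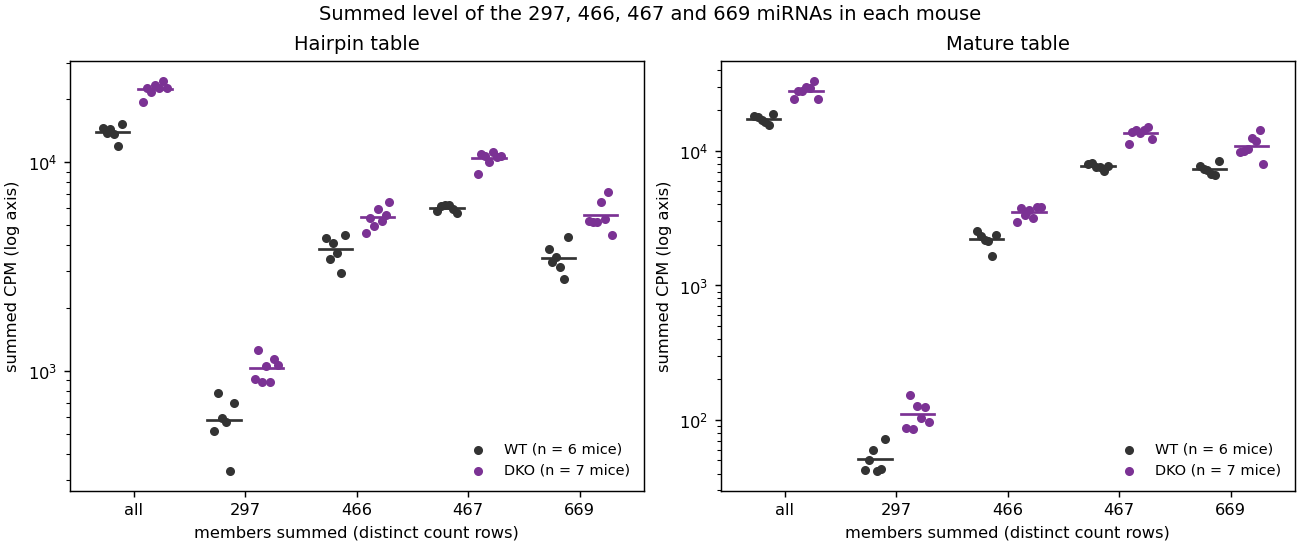
Summed CPM (log axis) of the members in each mouse, for all members and for each name group, in the hairpin table (left) and the mature table (right). Points are mice and bars are means over 6 WT and 7 *Tet2/3* DKO mice. The sums of all members do not overlap between genotypes in either table, and of the groups only the mature miR-669 sum overlaps.

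Single members were compared by edgeR's quasi-likelihood test fitted over all miRNAs of a table, with p-values adjusted by the Benjamini-Hochberg method, and a member was called at an adjusted p under 0.05. After the filter on low counts 77 of the 82 hairpins were tested. Of these, 64 were higher in DKO, 2 were lower and 11 were not called, where 32.6% of all 350 tested hairpins were called higher and 27.1% lower, 59.7% in all. Among the 273 tested hairpins that are no members, 18.3% were higher. Counted once per distinct set of counts, 43 of 56 tested members were higher, 2 were lower and 11 were not called. The members, 77 of the 350 tested hairpins, made up 56.1% of all hairpins called higher, with rows of identical counts all included. None had a log2 fold change above 2 in size.

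The mature table gave 45 members higher, 1 lower and 14 not called of 60 tested, or 36, 1 and 14 of 51 distinct sets of counts. Of all 401 tested mature miRNAs 28.2% were higher and 27.4% lower, 55.6% in all, and 19.9% of those that are no members were higher. Members, 60 of the 401 tested, were 39.8% of the mature miRNAs called higher, with rows of identical counts all included. Again none of them passed a log2 fold change of 2 in size. The changes were of moderate size, from -0.77 to 1.36 in hairpins and from -1.22 to 1.61 in mature miRNAs. The median log2 fold change of the tested members was 0.83 for hairpins and 0.78 for mature miRNAs. With each distinct set of counts taken once it was 0.71 and 0.78. Over all tested miRNAs the medians were 0.02 and -0.01, and over those that are no members -0.19 and -0.13.

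For 40 member hairpins (28 distinct sets of counts) every DKO mouse had a higher CPM than every WT mouse, and for none the reverse, where 18% of all tested hairpins were separated upwards and 14% downwards. For mature members the counts were 24 upwards (19 distinct) and 1 downwards, against 12.7% and 14.5% of all tested mature miRNAs.

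**Figure D2:**
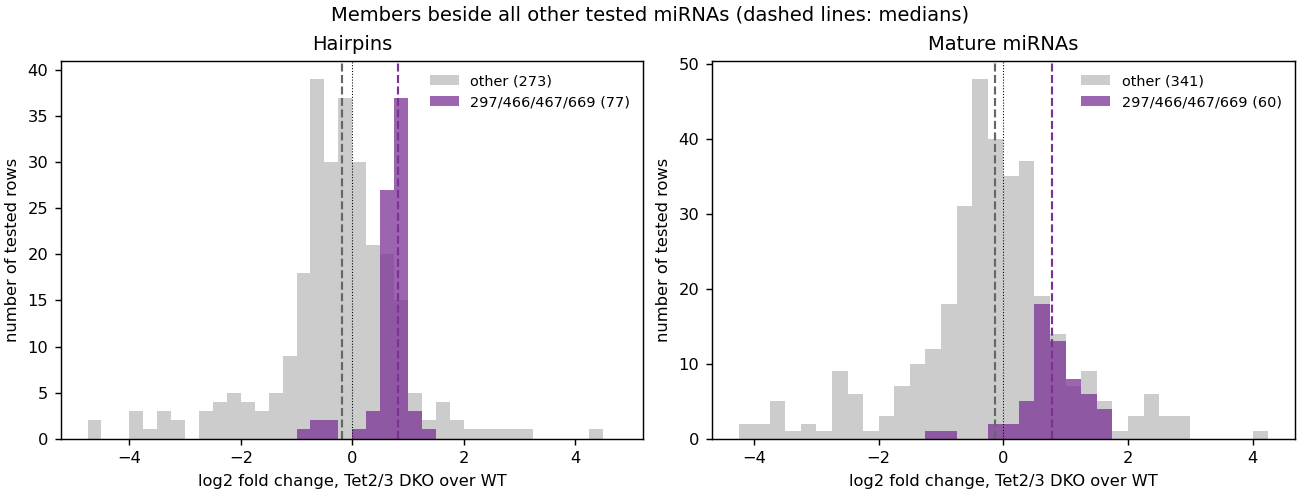
Number of tested hairpins (left) and mature miRNAs (right) by log2 fold change of *Tet2/3* DKO over WT, in bins of 0.25, with the members in purple and all other tested miRNAs in grey. Dashed lines are medians. Rows with identical counts are all included. Most members lie above 0, with medians of 0.83 and 0.78, while the other miRNAs spread to both sides of 0.

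Hairpins inside *Sfmbt2* and hairpins elsewhere gave different counts of calls. Of the 71 inside *Sfmbt2*, 68 were tested, of which 62 were higher, 0 lower and 6 not called, with a median log2 fold change of 0.87. Taken once per distinct set of counts, 41 of 47 were higher, 0 lower and 6 not called, with a median of 0.83. Of the 10 elsewhere, 8 were tested, of which 1 was higher (mir-466f-4), 2 were lower (mir-466q and mir-466i) and 5 were not called, with a median of -0.10. These 8 all had distinct counts. Of all 350 tested hairpins 32.6% were called higher and 27.1% lower. The 40 hairpins separated between genotypes (28 distinct sets of counts) all lay inside the gene, where 18% of all tested hairpins were separated upwards. Summed, hairpins inside *Sfmbt2* had 12896 ± 1060 CPM in WT (SD, n = 6) and 21537 ± 1540 in DKO (SD, n = 7), without overlap. Hairpins elsewhere had 891 ± 147 and 704 ± 87.0 CPM, and these overlapped. The difference between the 2 places was not tested, since hairpins of one transcript or with shared reads are not replicates.

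In the mature table, members named for hairpins of either place included some called higher. Places were given by name, so they do not show where the reads came from. Of the 63 mature members assigned to the gene, 48 were tested, with 37 higher, 0 lower and 11 not called. Taken once per distinct set of counts, 29 of 40 were higher. Of 9 named for hairpins elsewhere, 5 were tested, with 3 higher, 1 lower and 1 not called. Of all 401 tested mature miRNAs 28.2% were higher and 27.4% lower. A further 5 are named for hairpins both inside and outside the gene, 4 of them higher and 1 not called, and the 2 arms of miR-466a had no position, with 1 higher and 1 not called.

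**Figure D3:**
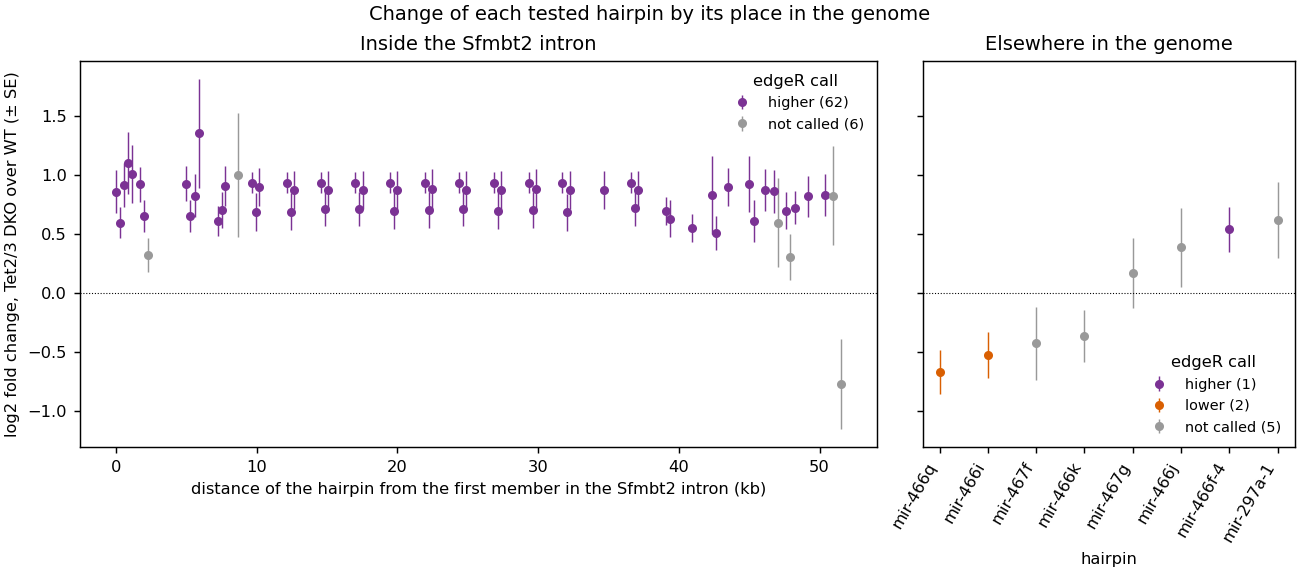
Log2 fold change (± SE) of *Tet2/3* DKO over WT for each tested member hairpin, against the distance in kb from the first member in the *Sfmbt2* intron (left, 68 hairpins) and for the 8 tested hairpins elsewhere (right). Colours give the edgeR call. In the intron 62 of 68 are higher (41 of 47 distinct sets of counts) and 0 lower. The only value below 0 there is mir-669h at the far end, while elsewhere 1 is higher and 2 are lower.

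The tandem repeat was visible in the positions. The 10 mir-467a hairpins lay a median of 2462 bp apart, the 12 mir-669a hairpins 2457 bp and the 8 mir-466b hairpins 2470 bp, and 7, 8 and 4 of their spacings were within 100 bp of these medians. The log2 fold changes barely varied within each series. They were 0.94 for all 10 mir-467a hairpins, 0.88 to 0.91 for mir-669a and 0.69 to 0.73 for mir-466b, and every copy was called higher. These copies are not independent measurements: 6 of the mir-467a hairpins had the same count in every library, as had 3 others, and 9 hairpins shared the count of mir-669a-4. How reads that match several copies were counted is not given in the sources used here, so the values hold for each series as a whole and not for a single copy.

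The members at the ends of the cluster were as follows. The first member, mir-466m, had a log2 change of 0.86 ± 0.18 (SE, adjusted p = 0.000419). The last, mir-669h, lies 51.5 kb further and had 26.5 to 157 CPM in WT with a median of 41.0, and 11.9 to 46.1 CPM with a median of 36.5 in DKO. The groups overlapped and the highest value was that of WT 1. Its log2 change of -0.77 ± 0.38 (SE) was not called (adjusted p = 0.0905), and it was the only tested hairpin of the intron below 0. Without WT 1 it was -0.21 (adjusted p = 0.573), and with upper-quartile scaling it was called lower (-1.01, adjusted p = 0.0352).

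The most abundant hairpin was mir-669c, with 1419 to 2216 CPM in WT (median 1628) and 1703 to 3162 in DKO (median 2381). The genotypes overlapped, and the log2 change was 0.51 ± 0.15 (SE, adjusted p = 0.00533). With upper-quartile scaling mir-669c was not called (0.27, adjusted p = 0.158). For mir-467c the range was 908 to 1209 CPM in WT (median 1169) and 1269 to 2275 in DKO (median 1586), without overlap, and the log2 change was 0.61 ± 0.13 (SE, adjusted p = 0.000449). The mir-467a-2 copies had 745 to 824 CPM in WT (median 796) and 1370 to 1619 in DKO (median 1573), with a log2 change of 0.94 ± 0.09 (SE, adjusted p = 3.80e-08), and mir-467b had the same log2 fold change of 0.94 from nearly the same counts. The hairpins mir-467d (0.55), mir-467e (0.70) and mir-466h (0.73) were also higher without overlap. The largest rises were those of mir-466o (1.36), mir-669e (1.11) and mir-669b (1.01), all from low levels of 7.89, 34.8 and 32.1 CPM in WT on average.

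Among mature miRNAs the 5p arms of the miR-669 and miR-467 groups led. The row shared by miR-669a-5p and miR-669p-5p had 3188 to 4221 CPM in WT (median 3855) and 4405 to 7227 in DKO (median 5712), which did not overlap. On average it was at rank 34 of 389 distinct mature rows in WT and 29 in DKO, with a log2 change of 0.60 ± 0.12 (SE, adjusted p = 0.000145). miR-467a-5p had 2377 to 2776 CPM in WT (median 2626) and 4203 to 5492 in DKO (median 5206). It went from rank 42 to rank 31, and its log2 change of 0.94 ± 0.10 (SE, adjusted p = 6.97e-08) was the same to the second decimal as that of mir-467a-2. The next, miR-467c-5p (1708 to 2933 CPM on average, log2 fold change 0.78), miR-467e-5p (1555 to 2579, 0.73) and miR-467d-5p (968 to 1455, 0.59), were higher without overlap, as were miR-467b-5p (523 to 857, 0.71), the row of miR-466a-3p and miR-466e-3p (625.1 to 1048, 0.75) and that of miR-466b-3p, miR-466c-3p and miR-466p-3p (427 to 705, 0.72). miR-669f-5p was higher with overlap (1016 to 1825, 0.85).

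miR-669c-5p stood apart from this group. It had 1296 to 1548 CPM in WT (median 1341) and 831 to 2161 in DKO (median 1201). In DKO 4, DKO 5 and DKO 6 it was above every WT mouse, at 1823 to 2161 CPM, and in the other DKO mice it was below every WT mouse, at 831 to 1201 CPM. These 3 were also the deepest mature libraries of the DKO mice, with 3881571 to 4361963 counts, and the part of depth was not tested. The log2 change of 0.06 ± 0.20 (SE) was not called (adjusted p = 0.812), and its sign changed when single libraries were left out (-0.11 to 0.09). The hairpin mir-669c was called higher.

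**Figure D4:**
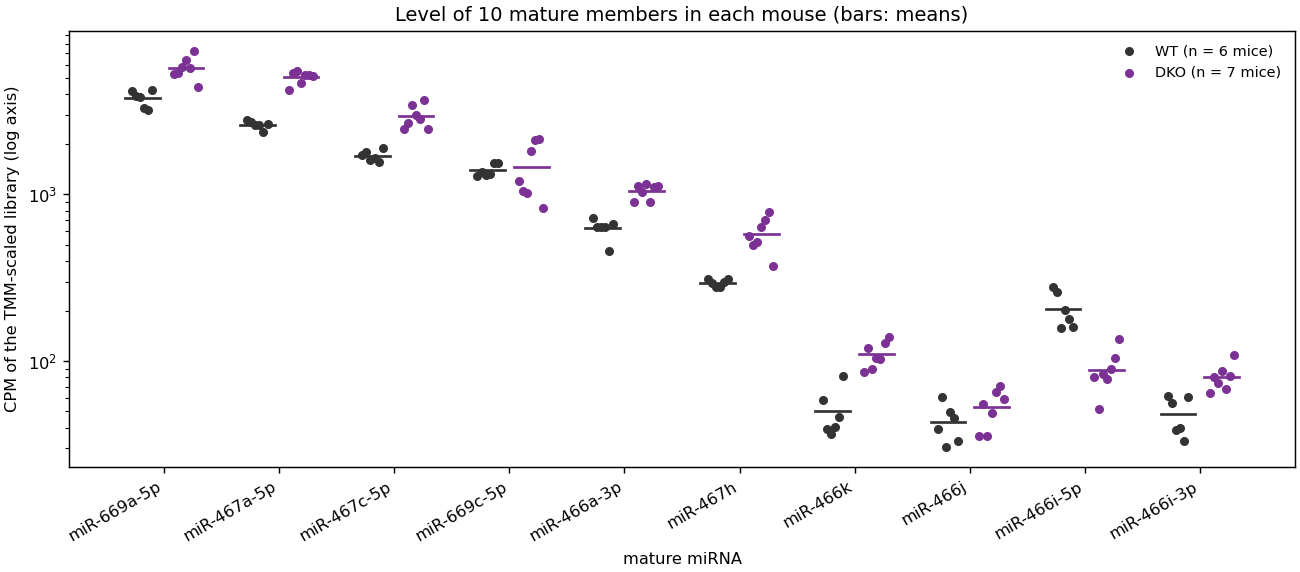
CPM (log axis) of 10 mature members in each of 6 WT and 7 *Tet2/3* DKO mice, with points for mice and bars for means. miR-669a-5p, miR-467a-5p, miR-467c-5p, miR-466a-3p, miR-467h, miR-466k and miR-466i-3p are higher in DKO without overlap, miR-466i-5p is lower without overlap, and miR-669c-5p splits to both sides of WT.

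The largest rises among mature members came from scarce arms. The row of miR-297a-3p, miR-297b-3p and miR-297c-3p had 0 to 7 counts in WT libraries and 7 to 25 in DKO, with a log2 change of 1.61 ± 0.63 (SE, adjusted p = 0.0349). miR-466o-3p had 1 to 11 and 20 to 49 counts and a log2 change of 1.60 ± 0.45 (SE, adjusted p = 0.00453). miR-297b-5p had 1 to 17 and 13 to 52 counts and a log2 change of 1.499 ± 0.52 (SE, adjusted p = 0.0183). The calls of the shared miR-297 3p row and of miR-297b-5p depended on single libraries. By contrast, miR-297a-5p and miR-297c-5p stayed called in all 13 fits with 1 mouse left out. With 1 mouse left out, miR-297b-3p passed the filter on low counts in 8 fits and was called in 4 of them, and not without WT 1, WT 2, WT 3 or WT 5 (log2 change 1.27 to 1.53, adjusted p 0.0638 to 0.0911), and the call of miR-297b-5p was lost without WT 2, WT 4 or WT 5 (log2 change 1.199 to 1.31, adjusted p 0.0535 to 0.0613). miR-466o-3p stayed called in all 13 fits with 1 mouse left out.

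Members named for hairpins outside *Sfmbt2* moved in both directions. The mature miR-467h, whose sequence is printed above, had 277 to 312 CPM in WT (median 295) and 374 to 782 in DKO (median 562). Every DKO mouse was above every WT mouse, with the lowest value in DKO 7, and the log2 change was 0.98 ± 0.15 (SE, adjusted p = 1.01e-05). This corresponds to 332 to 3232 mature counts a library, whereas the hairpin mir-467h had at most 16 counts in any library and was not tested. The reads counted for the mature miRNA were therefore mostly not counted for this hairpin, and their origin within the genome cannot be read from these tables.

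The same held in part for miR-466k. The mature miRNA had 36.4 to 81.3 CPM in WT (median 43.4) and 86.7 to 140 in DKO (median 104), without overlap, and a log2 change of 1.14 ± 0.20 (SE, adjusted p = 6.58e-05). Its hairpin had 41.5 to 113 CPM in WT (median 62.9) and 46.1 to 65.3 in DKO (median 58.3), with a log2 change of -0.36 ± 0.22 (SE) that was not called (adjusted p = 0.163) and ran from -0.48 to -0.13 with 1 mouse left out. miR-466j showed no such split, as the mature miRNA (0.30, adjusted p = 0.255) and the hairpin (0.39, adjusted p = 0.324) were both not called, and with 1 mouse left out they ran from 0.14 to 0.34 and from 0.25 to 0.66. The opposite case was mir-466q, with 204 to 705 hairpin counts a library but at most 4 counts of the mature miRNA. This hairpin had 415 to 634 CPM in WT (median 488) and 166 to 502 in DKO (median 312), which overlapped, and a log2 change of -0.67 ± 0.19 (SE, adjusted p = 0.00529). With library size as the only scaling mir-466q was not called (-0.33, adjusted p = 0.164).

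The arms of miR-466i moved in opposite directions. miR-466i-5p had 158 to 280 CPM in WT (median 191) and 51.7 to 135 in DKO (median 83.6), so that every DKO mouse was below every WT mouse. It was the only tested member called lower in the mature table (log2 fold change -1.22, SE 0.20, adjusted p = 2.38e-05). miR-466i-3p, the CA-rich arm printed above, had 33.2 to 62.0 CPM in WT (median 48.0) and 64.5 to 110 in DKO (median 80.4), with every DKO mouse above every WT mouse and a log2 change of 0.74 ± 0.19 (SE, adjusted p = 0.00274). The log2 ratio of the 3p to the 5p counts, which no scaling of libraries can alter, was -2.10 ± 0.37 in WT (SD, n = 6, -2.43 to -1.40) and -0.11 ± 0.38 in DKO (SD, n = 7, -0.40 to 0.64), a difference of 1.99. This ratio was chosen after the values had been seen. The hairpin mir-466i was lower in DKO (-0.52, SE 0.19, adjusted p = 0.0267). That call was lost without WT 1, WT 4, DKO 2 or DKO 3, each in turn, when the log2 fold change was -0.46, -0.34, -0.44 and -0.47, and also with library size as the only scaling (-0.19, adjusted p = 0.425) and with TMM factors from hairpins that are no members (-0.28, adjusted p = 0.226).

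Among the remaining hairpins elsewhere 1 was called. This hairpin, mir-466f-4, was higher (0.55, SE 0.19, adjusted p = 0.02004), but not without DKO 3 (0.49, adjusted p = 0.0515) or with upper-quartile scaling (0.29). The log2 fold changes of mir-297a-1 (0.62, adjusted p = 0.104), mir-467f (-0.42, adjusted p = 0.249) and mir-467g (0.17, adjusted p = 0.639) were not called, and that of mir-297a-1 was called, among the fits with 1 mouse left out, without WT 4 (0.87, adjusted p = 0.0408). It was also called higher with library size only (0.97, adjusted p = 0.0181) and with TMM factors from hairpins that are no members (0.89, adjusted p = 0.0318).

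Both arms were tested for 24 stems, and in 17 the 5p arm and in 7 the 3p arm was the more abundant over all mice. All 7 stems with a larger 3p arm were of the miR-466 group, which had 12 stems, whereas the 5p arm was larger in all 3 stems of miR-297, all 4 of miR-467 and all 5 of miR-669. Several stems share a row of counts, for instance miR-466b, miR-466c and miR-466p with 1 row for their 3p arms, so these counts overlap. The ratio of the larger to the smaller arm ranged from 1.09 to 45.4 in the miR-466 group and from 25.9 to 646 in the miR-467 group. By arm, 26 of 31 tested 5p rows were higher and 1 lower, and 15 of 24 tested 3p rows were higher and 0 lower. Taken once per distinct set of counts, 23 of 28 5p rows and 9 of 18 3p rows were higher. Of all 401 tested mature miRNAs 28.2% were higher and 27.4% lower. The 3p rows were mostly the scarcer ones, and the difference between the arms was not tested.

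Mature and hairpin changes mostly had the same sign. Of 59 tested mature members with a tested hairpin of the same name, 54 had the sign of the hairpin (the median where there were several) and 5 the opposite sign. These 5 were miR-466i-3p and miR-466k, both called higher, and miR-466f-3p (-0.19), miR-466m-3p (-0.01) and miR-669p-3p (-0.996), none of which was called. Both tables come from the same libraries, so the 2 are not independent samples of mice. Whether a read counted for a mature miRNA could also be counted for a hairpin is not given in the sources used here.

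**Figure D5:**
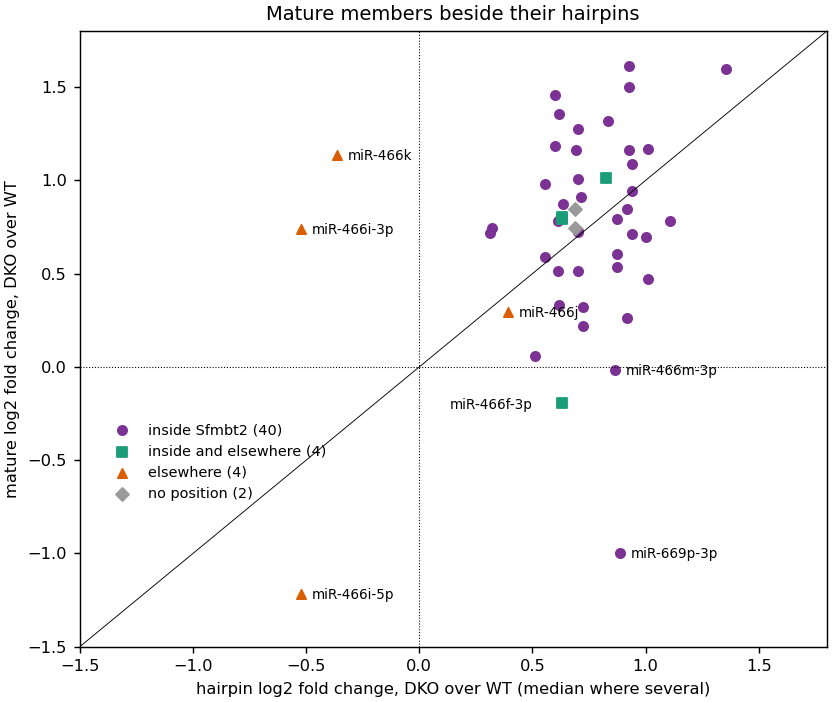
Log2 fold change of *Tet2/3* DKO over WT for each distinct tested mature member (y axis) against that of its hairpin (x axis, the median where several share the name), with symbols for place and a line of equality. Most lie in the upper right quadrant, while miR-466i-3p is called higher with a hairpin called lower, miR-466k is called higher with a hairpin that is below 0 but not called, and miR-466i-5p is lower with its hairpin.

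Long UG runs outside these names were looked for in the 1078 mature miRNAs that had a sequence, and none of those found was called higher. The 3 that are no members but hold an alternating UG run of at least 10 bases are shown with the seed in capitals.
miR-574-5p: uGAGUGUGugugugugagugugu
miR-1187: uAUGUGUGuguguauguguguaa
miR-3082-5p: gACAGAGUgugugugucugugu
miR-574-5p, from chromosome 5 and with a run of 13 bases, had 213 to 450 counts a library in WT and 304 to 963 in DKO, and its log2 change of -0.37 ± 0.17 (SE) was not called (adjusted p = 0.0774). miR-1187, with 11 bases, had 66 to 99 and 83 to 295 counts and a log2 change of 0.07 ± 0.24 (SE, adjusted p = 0.815). miR-3082-5p, with 10 bases, was lower (-1.56, SE 0.52, adjusted p = 0.0143) from at most 19 counts a library. Among the 1078 mature miRNAs with a sequence, those outside the members held no CA run of that length.

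The other large imprinted miRNA cluster of the mouse, Dlk1-Dio3, was scarce in these cells. Of its 49 hairpins 2 passed the filter on low counts and 0 were called, and of its 73 mature miRNAs 8 were tested, with 1 higher and 2 lower, against 77 of 82 hairpins and 60 of 79 mature miRNAs tested of the cluster of *Sfmbt2* and its namesakes. So few tested miRNAs allow no comparison of the direction of change.

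The members that were not tested were scarce. The 5 hairpins were mir-466l, mir-467h, mir-669g, mir-669j and mir-669n, with at most 16 counts in any library. The 19 mature miRNAs had at most 56 counts, and 8 of them had no count in any WT library. In 18 of the 19 the genotypes overlapped in CPM. The exception was miR-669c-3p, the scarce arm of mir-669c, with 8 to 18 counts in WT libraries and 0 to 11 in DKO, or 4.08 to 15.04 CPM (median 6.89) and 0 to 2.81 CPM (median 1.90). Every DKO mouse was below every WT mouse. It was called lower where the filter let it in, with at least 1 count in 1 library (log2 change -2.16, adjusted p = 0.00235), with DESeq2 (-2.25, adjusted p = 0.000418) and without WT 5 (-2.44, adjusted p = 0.00123). No other untested member was called under any setting run.

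Under each of 5 scalings of the libraries most members inside *Sfmbt2* were higher in DKO, while the size of the change depended on the scaling. The median log2 fold change of all tested hairpins was 0.02 with TMM, -0.09 with RLE factors, -0.22 with upper-quartile factors, 0.36 with library size only and 0.27 with TMM factors from hairpins that are no members. That of the tested member hairpins was 0.83, 0.74, 0.59, 1.16 and 1.09 under the same scalings. Inside *Sfmbt2* 58 to 67 of the 68 tested hairpins were higher in the 5 scalings, and 1 was lower with upper-quartile factors and 0 with the others.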

How the data were processed

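The authors ran nf-core/smrnaseq on single-end small RNA reads and deposited raw, unnormalized counts of each hairpin and each mature miRNA in every mouse. Per the labels the build was mm10. The aligner and the treatment of reads matching several sequences are not given in the sources used here.

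Members and lists were chosen with earlier results of these data known. Low rows were dropped with edgeR 4.0.16 (filterByExpr by genotype, count 10, total 15). TMM scaling and the robust quasi-likelihood test compared the genotypes over 13 mice, and Benjamini-Hochberg adjustment covered each table. CPM are counts per 1000000 of the TMM-scaled library. Alternatives used limma 3.58.1, DESeq2 1.42.0, other scalings and filters, and a block on replicate number. TMM factors from non-members and near copies taken once were added after the data had been seen. R 4.3.3, Python 3.11.15 and matplotlib 3.10.9 were used, and the tests were checked on simulated counts. No pair of libraries of one genotype agreed within sampling noise (chi-square per degree of freedom at least 17.9). As reads lack molecular identifiers, errors from counting alone are too small.

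Members were named by a rule: in each table the 10 most abundant distinct rows, the 3 largest called rises and falls, those called lower, up to 6 without overlap, and those with long UG runs. Members outside *Sfmbt2*, the end members of the cluster, miR-669c-5p's split, scarce or untested members and those whose arm and hairpin differed were named after their values had been seen. Positions came from GENCODE vM21 (GRCm38) by gene name and sequences from RefSeq (GRCm38.p6).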

Additional observations from a re-analysis of the deposited data

Results flagged for a closer look

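Within a genotype, 2 named members had 1 mouse far from the others by Dixon's test, among 80 groups checked, where chance gives about 4. In WT 5 the hairpin mir-669e had a log2(CPM + 1) of 3.51, with 4.98 in the next lowest WT mouse. In the same mouse miR-466a-3p had 8.84, with 9.31 in the next. WT 5 also had the lowest hairpin and mature sums of the members.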

How the results depend on the processing

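Members higher in DKO numbered 59 to 70 hairpins (44 with identical rows once) and 35 to 49 mature miRNAs under the other scalings, filters and tests, and 63 to 66 and 40 to 45 with 1 mouse left out. Hairpins lower were 2, but 0 with library size only, 4 with upper-quartile factors, 1 with TMM from non-members, 1 with at least 1 count in 1 library, and 1 to 2 with 1 mouse left out. Mature miRNAs lower were 1, but 2 with upper-quartile factors, with at least 1 count in 1 library and with DESeq2, and 1 to 2 with 1 mouse left out. All hairpins lower were 95, but 56 with library size only, 156 with at least 1 count and 164 with DESeq2. The log2 difference of the hairpin sum was 1.03 with library size only, 0.45 with upper-quartile factors, 0.94 with TMM from non-members and 0.65 to 0.72 with 1 mouse left out, and that of the mature sum 0.93, 0.52 and, with 1 mouse left out, 0.65 to 0.73. miR-669c-5p was -0.13 with upper-quartile factors and -0.1122 to 0.0923 with 1 mouse left out, and mir-467g -0.0597 with upper-quartile factors and -0.0292 with limma voom. The causes of these shifts were not tested.

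The labels give replicate numbers but do not say that these pair mice. Deviations of same-numbered mice correlated at -0.06 to 0.35 in hairpins and 0.02 to 0.34 in mature miRNAs, with 1 and 2 of 6 WT mice closest to their own number. So few mice cannot decide whether the numbers pair them. With the replicate block, 65 member hairpins were higher and 2 lower, and 41 mature members were higher and 1 lower.

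Depth limits the scarce arms and untested members. Reads shared by near copies leave single members uncertain.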
